A study of Homo sapiens with 12 samples.

Results

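The genes described here are those of the contractile ring and of the RhoA pathway that drives it: ANLN, RHOA, ECT2, CIT, DIAPH3, MYH9, MYH10, ROCK1 and ROCK2. They are the 9 genes on a list fixed by name, out of 57773 gene identifiers measured, and all 9 had enough reads to be tested. The cells were RPE1, a human retinal pigment epithelial line immortalised with telomerase. They had received an siRNA to Anillin (the protein made by ANLN) or a non-targeting siRNA, labelled Random, for 24 h. The living cells were stained with the DNA dye Hoechst 33342 and sorted, and a 2N and a 4N fraction were collected by DNA content. The 4 groups of 3 RNA-seq libraries are named here by siRNA and fraction: control 2N or 4N for the non-targeting siRNA, and Anillin 2N or 4N. Every group had been transfected, stained and sorted, and no untreated cells are among the samples. The series title gives Anillin knockdown as a route to polyploid cells through failed cytokinesis.

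The contractile ring is a belt of actin filaments and myosin II that forms under the plasma membrane of a dividing cell and pinches it apart. ECT2, a guanine nucleotide exchange factor, loads RhoA with GTP at the cell equator. Active RhoA then turns on formins, which build actin filaments, and the kinases ROCK and citron kinase, which act on myosin II. Anillin binds RhoA, actin, myosin II and septins and holds the ring together and to the membrane. Cells that lose Anillin can fail to divide and become binucleate with a doubled genome. A 4N gate takes in cells in G2 and mitosis, and it also takes in cells of doubled genome that are in G1.

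Reads in genes numbered 17412742 to 61760451 per library. The markers of the cell type were mixed: the keratins KRT8 and KRT18 averaged 450.2 and 439.8 reads per 1000000 (RPM) over all libraries, and the eye transcription factors OTX2 and MITF 36.8 and 29.8. RPE65 and TYR, which mark mature pigment epithelium, averaged 0.831 and 0.00828 RPM, close to 0. The remaining markers of this cell type on the list were low as well: SERPINF1 averaged 1.88 RPM, BEST1 1.51, PMEL 0.773 and RLBP1 0.404. Markers of blood cells were at or near 0 (HBB and CD3E at 0, PTPRC at 0.147) except CD68 at 40.1 RPM, and none of 5 markers of other epithelia or of 5 muscle markers reached the level needed for testing. The labels do not say whether the replicates came from separate cultures, so a p-value here reflects the spread among the libraries deposited, which may be technical.

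The sequences upstream of 4 ring genes are shown because these genes, ANLN, ECT2, CIT and DIAPH3, differed most between the sorted groups, a choice made after their values were seen. Each line gives the 250 bases before the RefSeq start (the first listed where a gene has more), on build GRCh38.p14 and on the gene's own strand, 5′ to 3′. Capitals mark TTTGAA or CCAAT on either strand, the first a form of the cell cycle genes homology region and the second the CCAAT box. In order they lie at chr7:36389612-36389861 on the plus strand, chr3:172750476-172750725 on the plus strand, chr12:119877321-119877570 on the minus strand and chr13:60163929-60164178 on the minus strand.
ANLN: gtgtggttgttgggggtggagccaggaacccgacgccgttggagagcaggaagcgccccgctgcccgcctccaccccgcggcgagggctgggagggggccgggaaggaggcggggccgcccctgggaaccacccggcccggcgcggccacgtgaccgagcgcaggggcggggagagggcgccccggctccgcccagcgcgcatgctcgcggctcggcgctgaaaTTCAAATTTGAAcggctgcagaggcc
ECT2: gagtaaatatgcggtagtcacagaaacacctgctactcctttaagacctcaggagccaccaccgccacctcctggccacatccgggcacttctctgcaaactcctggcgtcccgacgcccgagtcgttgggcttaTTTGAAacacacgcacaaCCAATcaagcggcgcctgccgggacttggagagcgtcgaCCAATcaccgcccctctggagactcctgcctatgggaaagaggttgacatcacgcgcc
CIT: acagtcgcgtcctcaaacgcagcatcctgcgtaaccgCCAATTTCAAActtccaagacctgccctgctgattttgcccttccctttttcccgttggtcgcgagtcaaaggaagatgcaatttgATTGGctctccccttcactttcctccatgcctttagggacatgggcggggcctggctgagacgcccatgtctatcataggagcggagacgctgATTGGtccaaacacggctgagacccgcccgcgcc
DIAPH3: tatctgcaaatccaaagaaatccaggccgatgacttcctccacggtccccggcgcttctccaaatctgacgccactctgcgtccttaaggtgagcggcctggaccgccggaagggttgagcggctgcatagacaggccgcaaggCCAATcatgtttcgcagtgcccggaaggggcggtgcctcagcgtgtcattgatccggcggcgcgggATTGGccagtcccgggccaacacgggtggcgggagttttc
ANLN held 2 matches to TTTGAA, their first bases 26 and 20 bases before the start, and no CCAAT. ECT2 held 1 match to TTTGAA and 2 to CCAAT. CIT held 1 and 3, and in that window its TTTGAA match on the minus strand begins where a CCAAT match ends. DIAPH3 held no TTTGAA and 2 matches to CCAAT. The other members held no TTTGAA in this window, and the related TTCGAA was in none of the 9. Of 35116 RefSeq promoters searched over the same length, 13.3% held TTTGAA, 1.19% held TTCGAA and 32.0% held CCAAT. A match is a description of the letters and not evidence of binding.

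The scaffold gene ANLN (ENSG00000011426) spans chr7:36389806-36453791 on the plus strand of GRCh38 (GENCODE 29, as are the positions of the other genes), and is protein-coding, as are the other 8. In control 2N it stood at 121, 79.97 and 107 RPM in replicates 1, 2 and 3, and in control 4N at 539, 477 and 511. In Anillin 2N it stood at 5.44, 3.72 and 2.53 RPM, and in Anillin 4N at 6.33, 5.47 and 4.48. Every library given the Anillin siRNA was far under every control library, so the targeted gene went with the labels, and the 2 Anillin groups overlapped each other. Mean ANLN was 1.07% of control among 4N cells and 3.81% among 2N cells. On the log2(RPM + 0.5) scale used for all tests it fell by 6.44 ± 0.17 (SE) in the 4N fraction (adjusted p = 1.27e-14, limma). In the 2N fraction it fell by 4.58 ± 0.17 (adjusted p = 1.14e-11). The knocked-down libraries held 57 to 259 ANLN reads each. MATCAP2, which overlaps ANLN on the opposite strand, was counted at up to 21.4 RPM as a group mean, above ANLN in these libraries. Whether counting used strand is not given, and the part of MATCAP2 reads in these low ANLN values was not tested. In bulk libraries, fewer cells carrying a transcript and less of it per cell cannot be told apart.

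Without the siRNA, ANLN rose with DNA content. Its mean was 102 ± 20.6 RPM (SD, n = 3) in control 2N and 509 ± 31.0 in control 4N, 4.97-fold higher, a log2 rise of 2.33 ± 0.17 (adjusted p = 5.70e-09). After Anillin siRNA its mean was 3.90 ± 1.46 RPM in 2N and 5.43 ± 0.924 in 4N, and this 1.39-fold difference did not pass the test (log2 0.47, adjusted p = 0.141). Without Anillin 2N replicate 1, its highest library, it did (log2 0.72, adjusted p = 0.00981).

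**Figure D1:**
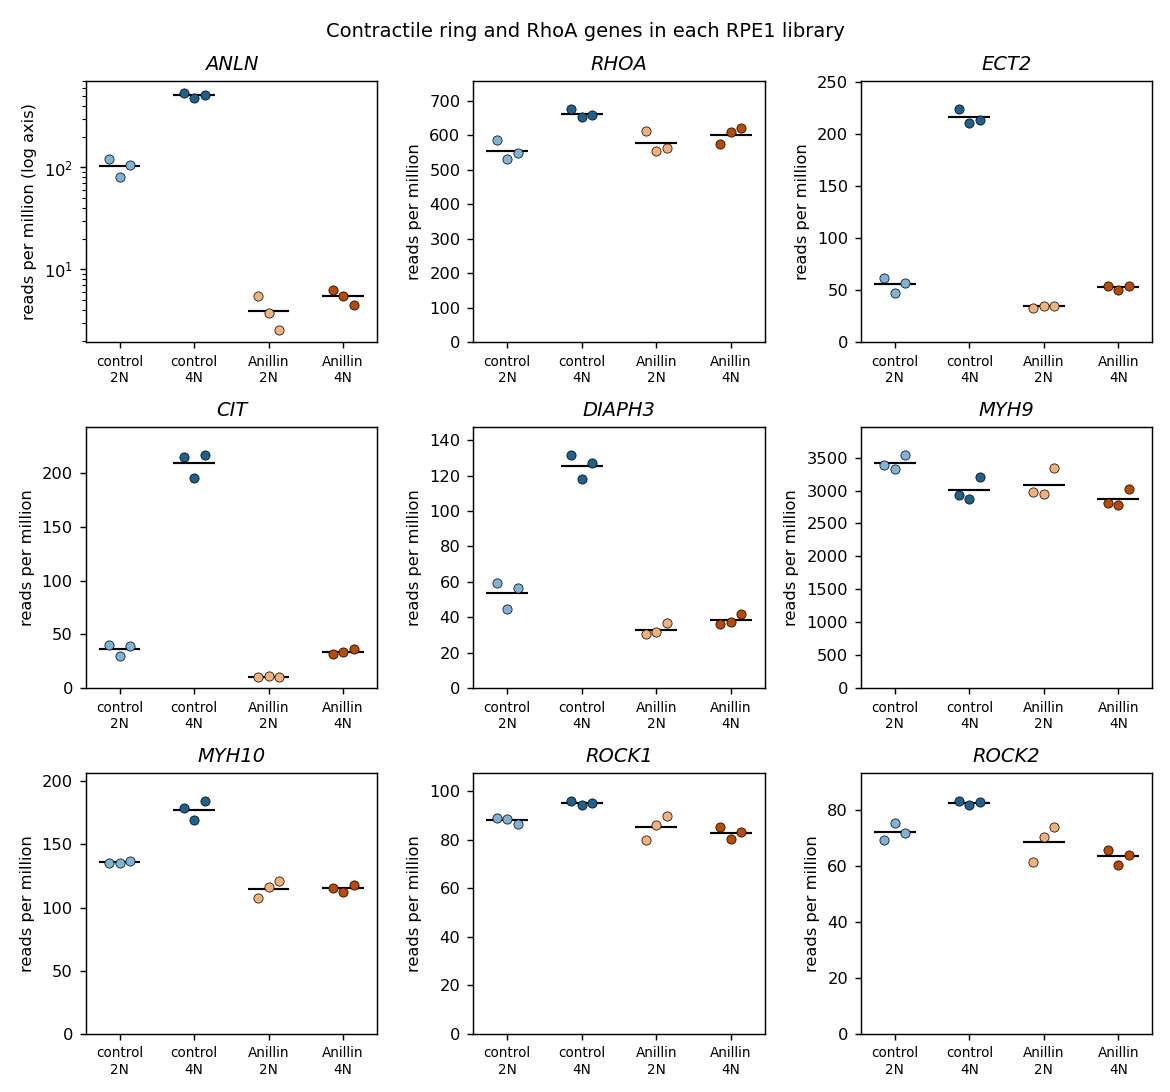
RPM of each of the 9 genes in the 12 libraries (points, replicates 1 to 3 from left to right) with the group mean (line); the axis for ANLN is logarithmic, the others start at 0. ECT2, CIT and DIAPH3 stand highest in all 3 control 4N libraries, while MYH9 lies between 2781 and 3543 in every library.

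RHOA and its activator ECT2 are the switch and the exchange factor that sets it. RHOA (ENSG00000067560, chr3:49359145-49412998, minus strand) encodes the GTPase itself and was among the most abundant genes measured. It stood at 585, 529.8 and 549 RPM in control 2N and at 676, 652 and 659 in control 4N. After Anillin siRNA it stood at 613, 555 and 564 RPM in 2N and at 574, 609 and 620.2 in 4N. The control 4N libraries were above all others and the other 3 groups overlapped, over a range of group means from 555 to 662 RPM. RHOA rose from control 2N to control 4N by 0.26 ± 0.05 log2 (adjusted p = 0.00107). Among 4N cells it fell by 0.14 ± 0.05 with Anillin siRNA (adjusted p = 0.0381). That call was lost with plain library totals (log2 -0.037, adjusted p = 0.571), with quantile normalisation (log2 -0.024, adjusted p = 0.68), with no filter (adjusted p = 0.0917) and without any 1 of 5 of its 6 libraries (adjusted p from 0.0535 to 0.162). Among 2N cells its difference was 0.06 (adjusted p = 0.479).

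ECT2 (ENSG00000114346, chr3:172750682-172821474, plus strand) ranged more widely, with group means from 34.3 to 216 RPM. It stood at 61.8, 47.5 and 56.9 RPM in control 2N and at 224, 210.2 and 213 in control 4N. After Anillin siRNA it stood at 32.9, 35.0 and 35.1 RPM in 2N and at 54.3, 49.6 and 53.8 in 4N. The control 4N libraries were apart from all others, the Anillin 2N libraries were under all others, and Anillin 4N lay within the range of control 2N. ECT2 rose 3.89-fold from control 2N to control 4N (log2 1.96 ± 0.07, adjusted p = 1.90e-13). With Anillin siRNA it fell by 2.03 ± 0.07 log2 in the 4N fraction (adjusted p = 1.29e-13) and by 0.67 in the 2N fraction (adjusted p = 1.31e-06). Between the sorted fractions of siRNA-treated cells it rose 1.53-fold (log2 0.61, adjusted p = 1.57e-05).

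Of the kinases and formin that act under RhoA, CIT and DIAPH3 rose with DNA content in control cells and fell with Anillin siRNA in both fractions. CIT (ENSG00000122966, chr12:119685790-119877291, minus strand) encodes citron kinase, which stabilises the ring and the midbody. It stood at 40.1, 29.4 and 39.5 RPM in control 2N and at 215, 196 and 217 in control 4N. After Anillin siRNA it stood at 10.0, 10.9 and 9.86 RPM in 2N and at 31.3, 33.3 and 36.6 in 4N. The 2N and 4N libraries did not overlap under either siRNA, and Anillin 4N lay within the range of control 2N. CIT rose 5.76-fold between control fractions (log2 2.52 ± 0.09, adjusted p = 1.63e-13), the widest fold among the 9 genes there, and 3.28-fold between the Anillin fractions (log2 1.67, adjusted p = 5.82e-10). With Anillin siRNA it fell by 2.62 ± 0.09 log2 in the 4N fraction (adjusted p = 1.02e-13) and by 1.76 in the 2N fraction (adjusted p = 1.69e-10).

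DIAPH3 (ENSG00000139734, chr13:59665583-60163987, minus strand) encodes a formin that lengthens actin filaments. It stood at 59.6, 44.6 and 56.8 RPM in control 2N and at 132, 118 and 127 in control 4N. After Anillin siRNA it stood at 30.3, 31.6 and 36.5 RPM in 2N and at 36.2, 37.2 and 42.1 in 4N. Here both Anillin groups lay under every control library, and they overlapped each other. DIAPH3 rose 2.34-fold between control fractions (log2 1.23 ± 0.09, adjusted p = 4.80e-09), and its difference between the Anillin fractions was 0.23 log2 (adjusted p = 0.181). It fell by 1.70 ± 0.09 in the 4N fraction (adjusted p = 2.34e-11) and by 0.69 in the 2N fraction (adjusted p = 1.29e-05).

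The related kinases ROCK1 and ROCK2, which phosphorylate myosin light chain and its phosphatase, varied little. ROCK1 (ENSG00000067900, chr18:20946906-21111851, minus strand) stood at 89.0, 88.8 and 86.4 RPM in control 2N and at 96.2, 94.6 and 95.1 in control 4N. It stood at 79.9, 86.3 and 89.9 RPM in Anillin 2N and at 85.1, 80.5 and 83.4 in Anillin 4N. The control 4N libraries were above all others, by a few RPM. With Anillin siRNA ROCK1 fell by 0.20 ± 0.05 log2 among 4N cells (adjusted p = 0.00245), a call lost with plain library totals (log2 -0.09, adjusted p = 0.113) and with quantile normalisation (log2 -0.07, adjusted p = 0.233). The pseudogene ROCK1P1 was counted at 12.5% to 15.6% of ROCK1, and how reads shared by the copies were assigned is not given in the sources used here.

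ROCK2 (ENSG00000134318, chr2:11179761-11348330, minus strand) stood at 69.4, 75.3 and 71.8 RPM in control 2N and at 83.3, 81.6 and 82.9 in control 4N. It stood at 61.2, 70.5 and 73.8 RPM in Anillin 2N and at 65.5, 60.5 and 64.0 in Anillin 4N. Its 4N libraries fell into separate ranges by siRNA, and its 2N libraries overlapped. ROCK2 fell by 0.38 ± 0.06 log2 among 4N cells (adjusted p = 3.72e-05), and among 2N cells its difference was -0.08 (adjusted p = 0.376). It rose by 0.19 between control fractions (adjusted p = 0.0168), a call lost with plain library totals (0.0944), quantile normalisation (0.278) and without replicate 1 of control 2N (0.0653) or of control 4N (0.0519), all adjusted p-values.

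The nonmuscle myosin II heavy chains are the motor of the ring. MYH9 (ENSG00000100345, chr22:36281277-36388067, minus strand), heavy chain IIA, stood at 3392, 3333 and 3543 RPM in control 2N and at 2935, 2867 and 3208 in control 4N. It stood at 2977, 2941 and 3344 RPM in Anillin 2N and at 2814, 2781 and 3019.5 in Anillin 4N. It was the most abundant of the 9 genes in every library, and control 4N overlapped both Anillin groups. In every group its order from the top was replicate 3, then 1, then 2. Whether replicates of the same number match across groups was not tested. A shift that they share would count as spread in the tests of MYH9 below. Among 4N cells the difference with Anillin siRNA was -0.06 log2 (95% interval -0.21 to 0.09, adjusted p = 0.475), and with plain library totals it was 0.04. Among 2N cells MYH9 differed by -0.15 (adjusted p = 0.127), which was called with quantile normalisation (-0.19, adjusted p = 0.0322) and without Anillin 2N replicate 3 (-0.21, adjusted p = 0.032). MYH9 was the single member lower in control 4N than in control 2N (log2 -0.19, adjusted p = 0.0413). That call was lost with no filter (0.164), quantile normalisation (0.473), median-of-ratios scaling (0.0539) and without replicate 1 or 3 of control 2N or replicate 1 or 2 of control 4N (0.0719 to 0.139), all adjusted p-values.

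MYH10 (ENSG00000133026, chr17:8474205-8630761, minus strand), heavy chain IIB, had group means between 115 and 178 RPM. It stood at 135, 135 and 137 RPM in control 2N and at 179, 169 and 185 in control 4N. It stood at 108, 116 and 121 RPM in Anillin 2N and at 116, 112 and 118 in Anillin 4N. Both Anillin groups lay under every control library and overlapped each other. MYH10 rose by 0.39 ± 0.05 log2 between control fractions (adjusted p = 8.49e-06), or by 0.26 with quantile normalisation, and fell by 0.62 ± 0.05 with Anillin siRNA among 4N cells (adjusted p = 7.57e-09). Among 2N cells it fell by 0.24 (adjusted p = 0.00132). NDEL1, on the opposite strand over part of MYH10, was counted at up to 60.0 RPM, 43.6% of MYH10 as means over all libraries; whether counting used strand is not given in the sources used here, and the part of NDEL1 reads in the MYH10 values was not tested. On the opposite strand of ANLN, MATCAP2 was counted at 11.1% of ANLN, a mean over all libraries, and at up to 21.4 RPM as a group mean. Mean ANLN after Anillin siRNA was under that value, at 3.90 RPM in 2N and 5.43 in 4N.

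Levels of different genes were compared per kilobase of exon. In control 2N the order from the top was MYH9 at 379.8 RPM per kb, RHOA at 215, ANLN at 17.0, MYH10 at 15.1, ECT2 at 10.1, ROCK1 at 7.92, DIAPH3 at 7.21, ROCK2 at 7.11 and CIT at 2.75. In control 4N the top 2 were unchanged in order, and ANLN at 84.6 and ECT2 at 39.2 stood above MYH10 at 19.7, DIAPH3 at 16.9 and CIT at 15.8. After Anillin siRNA, ANLN at 0.648 RPM per kb in 2N and 0.903 in 4N was the lowest of the 9 by group mean in 4N and, with CIT at 0.776, among the lowest in 2N. As a ratio of the heavy chains within a library, MYH10 per kb of exon was 0.0397 ± 0.00104 (SD, n = 3) of MYH9 in control 2N, 0.0592 ± 0.00163 in control 4N, 0.0373 ± 0.00190 in Anillin 2N and 0.0401 ± 0.00111 in Anillin 4N. ROCK2 was 0.949 ± 0.00466 of ROCK1 in control 4N, against 0.835 ± 0.0112 in Anillin 4N. These ratios are descriptions and were not tested.

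**Figure D2:**
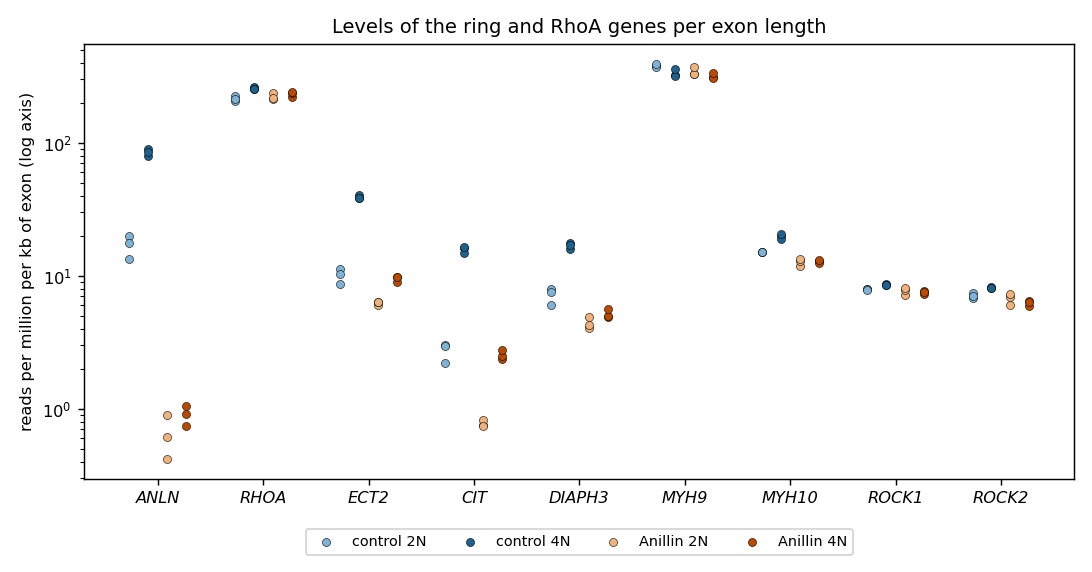
RPM per kilobase of exon (log axis) of the 9 genes in each of the 12 libraries, coloured by group. MYH9 and RHOA lie above the other 7 in every library, and CIT spans 0.776 to 15.8 between the means of Anillin 2N and control 4N.

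Read as a group, 8 of the 9 genes were lower with Anillin siRNA in the 4N fraction, with MYH9 the exception, while of the 19591 genes tested 28.1% were lower there, 24.5% higher and 52.6% called in either direction. ANLN, counted here and in the counts below, is the siRNA's target, so its fall comes with the treatment and says nothing of the other members. The median log2 change was -0.62 over the 9 genes and -0.00160 over all genes tested. With plain library totals the genes called split into 6635 higher and 4102 lower in place of 4802 and 5510, and 6 of the 9 members stayed lower, the calls of RHOA and ROCK1 being lost. Among 2N cells 5 members were lower with Anillin siRNA (ANLN, ECT2, CIT, DIAPH3 and MYH10), against 17.0% of all genes lower, 12.6% higher and 29.7% called in all, and the medians were -0.24 and -0.02. The 2 comparisons share no library, but both use the spread estimated over all 12 libraries. Whether the 2N and 4N fractions came from the same cultures is not known, so the comparisons may not be independent.

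From control 2N to control 4N 7 members rose (ANLN, RHOA, ECT2, CIT, DIAPH3, MYH10 and ROCK2) and 1, MYH9, fell, where 21.3% of all genes rose and 19.5% fell, 40.8% in all. The median was 0.39 over the members. ROCK1 was 0.11 higher (adjusted p = 0.0763). From Anillin 2N to Anillin 4N 2 members rose, ECT2 and CIT. Of all genes 3.38% rose and 2.19% fell, 5.57% in all.

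**Figure D3:**
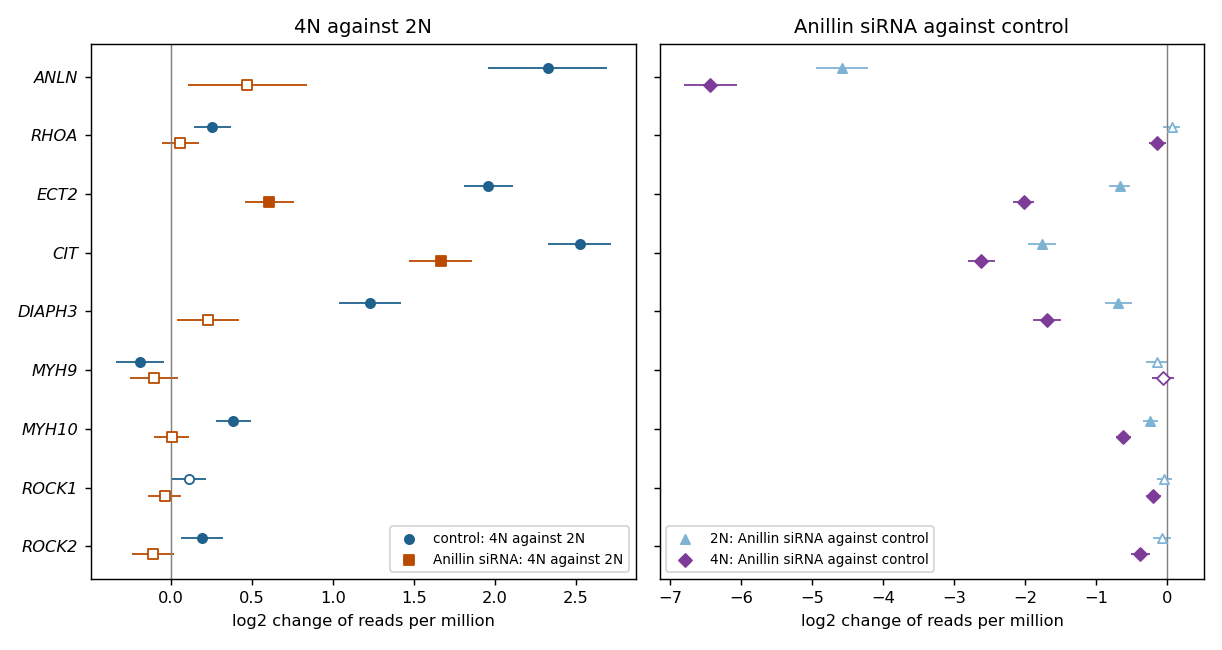
Log2 changes of RPM of the 9 genes with 95% intervals, from 2N to 4N under each siRNA (left) and from control to Anillin siRNA in each fraction (right); filled symbols had an adjusted p under 0.05. From 2N to 4N the control symbols of ANLN, ECT2, CIT and DIAPH3 lie between 1.23 and 2.52, to the right of those after Anillin siRNA.

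Anillin 4N cells were then set against control 2N cells, a comparison that shares its libraries with those above. ECT2 differed by -0.07 log2 (95% interval -0.22 to 0.09, adjusted p = 0.52) and CIT by -0.10 (-0.29 to 0.10, adjusted p = 0.456). Neither passed the test. Without control 2N replicate 2, the library with the lowest ECT2, CIT and DIAPH3 of its group, both were called lower (ECT2 -0.17, adjusted p = 0.0267, CIT -0.24, adjusted p = 0.0102). Members lower in this comparison numbered 5, where 17.7% of all genes were lower, 14.4% higher and 32.1% called in all. ANLN, the siRNA's target, fell by 4.11 (adjusted p = 7.94e-12), DIAPH3 fell by 0.47 (adjusted p = 0.000671), MYH9 fell by 0.25 (0.0105), MYH10 by 0.24 (0.00143) and ROCK2 by 0.19 (0.0255). The MYH9 call was lost with no filter (0.0675) and without Anillin 4N replicate 2 (0.0519). The ROCK2 call was lost with no filter (0.0673), with plain library totals (0.0755) and without replicate 2 or 3 of control 2N or replicate 2 of Anillin 4N (0.0523 to 0.116). RHOA was 0.12 higher (adjusted p = 0.118), and with plain library totals (0.16, adjusted p = 0.0262) or quantile normalisation (0.20, adjusted p = 0.00253) this was called.

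Whether the effect of Anillin siRNA differed between fractions was tested directly as the change among 4N cells minus that among 2N cells. It was more negative among 4N cells for 6 members, ANLN (the siRNA's target), ECT2, CIT, DIAPH3, MYH10 and ROCK2. Of all genes tested 10.6% were called in that direction, 7.94% in the other and 18.5% in all. ECT2 had a difference of -1.35 ± 0.10 log2 (adjusted p = 7.25e-08), DIAPH3 of -1.003 ± 0.13 (2.99e-05) and CIT of -0.86 ± 0.13 (0.000164). For MYH10 it was -0.38 ± 0.07 (0.00115). For ROCK2 it was -0.30 ± 0.09 (0.0202), lost with no filter (0.0613), plain library totals (0.0804), quantile normalisation (0.117) and on leaving out replicate 2 or 3 of Anillin 2N or replicate 2 of Anillin 4N (0.0552 to 0.062). The difference of RHOA was -0.20 (0.0854), called without control 2N replicate 1 (-0.24, 0.0481). ROCK1 had -0.15 (0.147) and MYH9 0.09 (0.601), again as adjusted p-values.

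Markers of cell cycle stage also differed between the groups, in the same directions as ECT2 and CIT but not as all 9 genes. MYH9 was lower in control 4N than in control 2N, and DIAPH3 was not called between the Anillin fractions. Summed over 20 genes of G2 and mitosis, levels were 848 to 1216 RPM in control 2N and 6244 to 6967 in control 4N. They were 322 to 342 RPM in Anillin 2N and 946 to 1036 in Anillin 4N, and no marker was at 0 in any group. All 20 were lower with Anillin siRNA in each fraction (medians -2.64 among 4N and -1.51 among 2N cells), and all 20 rose from 2N to 4N under each siRNA (medians 2.64 in control and 1.51 after Anillin siRNA). Of all genes tested, 28.1% were lower with Anillin siRNA among 4N cells and 17.0% among 2N cells. From 2N to 4N, 21.3% of all genes rose in control and 3.38% after Anillin siRNA. The siRNA effect was more negative among 4N than among 2N cells for 19 of the 20 markers (median difference -1.18), where 10.6% of all genes were called in that direction. CCNB1, the mitotic cyclin, fell by 2.43 among 4N cells. TOP2A, the decatenating topoisomerase, fell by 3.23 and MKI67, the proliferation antigen, by 2.78. Set against control 2N, Anillin 4N had 2 of the 20 markers higher and 3 lower (median 0.06, and -0.12 without control 2N replicate 2). Of all genes 14.4% were higher and 17.7% lower there, so near equality of these groups was not particular to ECT2 and CIT. In control 2N replicate 2 the sum of the markers was the lowest of its group, as were ANLN, ECT2, CIT and DIAPH3. The part of the markers in the changes of the ring genes was not tested.

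Genes of the G1/S transition were also lower with Anillin siRNA, 13 of 15 among 4N cells (median -1.44) and 14 of 15 among 2N cells (median -1.09). Of all genes 28.1% were lower and 52.6% called among 4N cells, and 17.0% and 29.7% among 2N cells. The replication clamp PCNA fell by 0.68 among 4N cells and CCNE2, cyclin E2, by 1.18, or by 0.35 on the deposited RPKM scale. Between control fractions 7 of the 15 rose and 3 fell, with a median of 0.28 (0.0965 without control 2N replicate 2). Of all genes 21.3% rose and 19.5% fell there, so the 3 that fell are no result about the list. In Anillin 4N against control 2N, 13 of the 15 were lower (median -1.10), where 17.7% of all genes were lower and 32.1% called.

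Likeness of profile was measured over the 12 libraries as the root-mean-square difference of log2 levels, each gene centred on its mean, among 12621 genes with a mean of at least 5 RPM. Nearest to ECT2 were PARPBP at 0.0718, KIF22 at 0.0946 and UBE2S at 0.104. Nearest to CIT were BUB1B at 0.0928, SPAG5 at 0.0950 and NCAPH at 0.105, and nearest to DIAPH3 were RFC3 at 0.0630, LMNB2 at 0.0986 and RFWD3 at 0.0998. ANLN, which the siRNA targets, had no near neighbour, with BIRC5 at 1.45, KIF4A at 1.502 and CEP55 at 1.52. Nearest to MYH10 were SPTBN1, ZC3H7A and CEP41, at 0.0359 to 0.0379. Within the list, ROCK1 and ROCK2 were nearest to each other at 0.0745, and ECT2 and DIAPH3 at 0.309. The profiles were not scaled by their spread, so genes that vary little lie close to each other. RHOA and MYH9 also had ROCK1 as nearest member, at 0.108 and 0.125. Distances of such genes, MYH10 included, cannot be ranked against those of ECT2, CIT and DIAPH3. BUB1B is among the 20 G2/M markers.

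Of the myosin II light chains, their kinase and their phosphatase, 7 of 8 could be tested, MYH14 (heavy chain IIC) having a mean of 0.137 RPM in control 4N. Among 4N cells 3 fell and 1 rose (median -0.04, and 0.06 with plain library totals). These 4 of 7 are near the 52.6% of all genes called in that comparison, with 28.1% lower and 24.5% higher, and so are no result about the list. PPP1R12A, the targeting subunit of myosin phosphatase, fell by 0.32, and the light chains MYL12B and MYL9 fell by 0.24 and rose by 0.26. With quantile normalisation PPP1R12A fell by 0.17 and MYL12B by 0.12.

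Actins, their crosslinkers and the proteins that link them to the membrane were lower in 8 of 9 cases among 4N cells (median -0.30), where 28.1% of all genes were lower and 52.6% called. Of the ezrin family, which ties actin to the membrane, EZR fell by 0.60 ± 0.06 (adjusted p = 1.13e-07, from 449 to 296 RPM) and RDX by 0.58 ± 0.05 (adjusted p = 6.05e-09), while MSN differed by -0.11 (adjusted p = 0.11), the single gene of the list not called. The crosslinker ACTN4 fell by 0.48. Set against control 2N, Anillin 4N cells also had 8 of the 9 lower, where 17.7% of all genes were lower and 32.1% called. Of the 4 septins, filament-forming GTPases that Anillin recruits, 3 fell and 1 rose among 4N cells (median -0.25), set against the same 28.1% lower and 24.5% higher. SEPTIN7 fell by 0.42 and SEPTIN9 by 0.33, and SEPTIN6 rose by 0.21. With quantile normalisation SEPTIN7 fell by 0.25 and SEPTIN9 by 0.21. With plain library totals the medians were -0.19 for the actin list and -0.14 for the septins, closer to 0 but with the same sign.

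**Figure D4:**
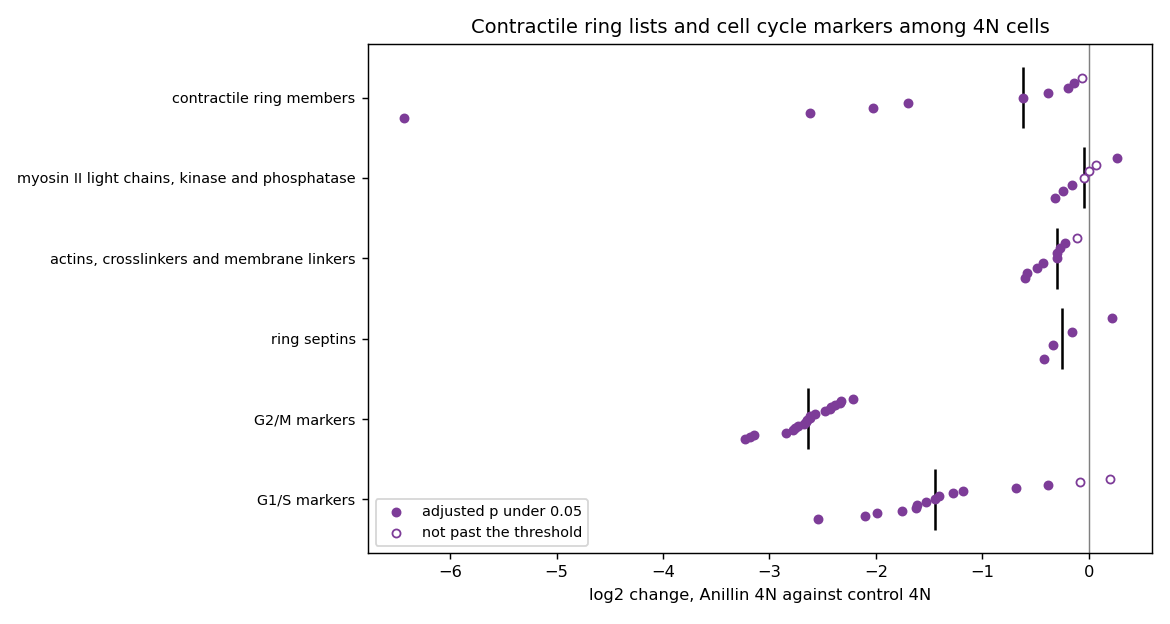
Log2 change of each gene of 6 lists in Anillin 4N against control 4N (points; filled, adjusted p under 0.05) with the list median (vertical bar). All 20 G2/M markers lie below -2, and the actin, light chain and septin genes lie much closer to 0.

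The authors' RPKM divides by the genomic span, introns included, and puts these genes low, since their spans run from 53854 to 498405 bases and their exons from 2582 to 13230. On that scale, with 0.5 RPKM added, DIAPH3 and ROCK2 fell under the filter, and low values were pulled together. ANLN then fell by 3.85 among 4N cells and by 1.89 among 2N cells (1.83 in Anillin 4N against control 2N), CIT by 1.24 and 0.32, ECT2 by 0.38 among 2N cells, MYH10 by 0.40 and 0.15 and ROCK1 by 0.10 among 4N cells. CIT rose by 1.21 between control fractions and by 0.29 between Anillin fractions, and ECT2 by 0.34 between the latter. Of the other genes named, among 4N cells PPP1R12A fell by 0.18 and RDX by 0.38 on that scale, and SEPTIN6 rose by 0.10. All of these remained past the threshold. CIT passed the filter on that scale only through control 4N (1.02 to 1.14 RPKM), its values in all other libraries being at most 0.209. Its calls there therefore add no support.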

How the data were processed

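Sorted RPE1 fractions were sequenced in 12 libraries. The authors deposited 1 table of RPKM, with 57773 identifiers. The submitters' processing notes list the build hg19 and the tools CASAVA 1.8.2, edgeR and TopHat2, and give none of them a role. Which annotation and counter were used, and whether strand was used, is not given in the sources used here. A stranded mRNA kit was used per the labels' protocols, while another label says ribo-depleted total RNA.

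The deposited RPKM of all 38571 identifiers above 0 were whole reads over a length and a library size, within 0.01 read. That length was the GENCODE 29 gene span for 29236 of them and came from the common divisor of a gene's own values for 9335, where few values above 0 make a divisor easy to find. It was multiplied out, leaving RPM (reads per 1000000) of the authors' library sizes, which are 0.951 to 1.04 times the summed reads. This ratio went with the group: 0.951 to 0.962 in control 4N, 0.996 to 1.007 in control 2N, 1.01 to 1.02 in Anillin 2N and 1.01 to 1.04 in Anillin 4N. Against plain totals the authors' sizes therefore set RPM higher in control 4N and lower in both Anillin groups. Depth was 17412742 to 61760451 reads. Among the 9 genes precision is lowest for ANLN after siRNA, which had 57 to 259 reads a library. Identifiers without a gene name numbered 5435. Coordinates are GRCh38, a later build than the authors'.

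Genes with at least 0.5 RPM in at least 3 of 12 libraries (19591) were fitted with limma-trend (limma 3.58.1, R 4.3.3) on log2(RPM + 0.5), with 1 mean per group, two-sided tests and Benjamini-Hochberg adjustment over all genes tested, at a threshold of 0.05. A fold on this scale understates the change of low genes. The interaction is the siRNA effect among 4N minus that among 2N cells. The steps were tested on simulated data. Figures used pandas 2.3.3, numpy 2.4.6 and matplotlib 3.10.9 in Python 3.11.15. Promoters came from RefSeq on GRCh38.p14 and matched all 9 genes.

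Of each other pathway list, the text names the 3 genes changed most among those past the threshold in Anillin 4N against control 4N, and up to 2 past it against the majority of their list's calls; of the cell cycle markers it names 5 examples. The members and lists were chosen with earlier results of these data known. Alternatives were pseudocounts of 0.1 and 1 RPM, no filter, a filter of 5 RPM, the deposited RPKM scale, plain totals, quantile and median-of-ratios scaling, limma-voom on the recovered reads, and leaving out each library. Some further gene lists are not reported here.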

Additional observations from a re-analysis of the deposited data

Results flagged for a closer look

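The change after Anillin siRNA differed between the sorted fractions for 6 of the 9 genes, by the interaction term of the limma fit, where 10.6% of the 19591 genes tested were called in the same direction, 7.94% in the other and 18.5% in all. Of the 20 G2/M markers, 19 were called in the same direction too (median -1.18), so this difference is not particular to the ring genes. As the log2 change among 4N cells minus that among 2N cells, the difference was -1.85 ± 0.25 (SE) for ANLN (adjusted p = 4.30e-05), -1.35 ± 0.10 for ECT2 (7.25e-08) and -0.86 ± 0.13 for CIT (0.000164). It was -1.003 ± 0.13 for DIAPH3 (2.99e-05), -0.38 ± 0.07 for MYH10 (0.00115) and -0.30 ± 0.09 for ROCK2 (0.0202). ANLN is the siRNA's target and was low in both Anillin groups, at 57 to 259 reads a library, so its difference says nothing of the other members. The ROCK2 call was lost with no filter (0.0613), plain library totals (0.0804) and quantile normalisation (0.117), and on leaving out any of 3 libraries (0.0552 to 0.062). For each of the 6, all 3 Anillin 4N libraries were below all 3 control 4N libraries. The calls used these same libraries, and how many of all genes separate in this way was not counted. The separation is therefore a description and adds no support. Among 2N cells ANLN, ECT2, CIT, DIAPH3 and MYH10 also did not overlap by siRNA, and ROCK2 did, with the same limit.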

How the results depend on the processing

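On the deposited RPKM scale 12892 genes were tested in place of 19591, and counts of genes called changed by over 1.5 times: 6638 for Anillin 4N against control 4N (10312 on the RPM scale), 3682 for Anillin 2N against control 2N (5814), 4782 between control fractions (8000), 461 between Anillin fractions (1092), 3854 for Anillin 4N against control 2N (6289) and 2019 for the interaction (3631). These counts have unlike bases, so they do not show how far the share of genes called moved. Without a filter 688 genes were called between Anillin fractions, and leaving out 1 library gave 608 to 889. Members called for Anillin 4N against control 2N numbered 3 without a filter and 3 to 6 with 1 library left out, in place of 5. On the RPKM scale they numbered 3 because DIAPH3 and ROCK2 fell under the filter and were not tested, and ANLN, MYH9 and MYH10 kept their calls. The share of higher calls moved by over 10 points with plain library totals, from 46.6% to 61.8% for Anillin 4N against control 4N, from 52.1% to 38.8% between control fractions, from 44.9% to 56.2% for Anillin 4N against control 2N and from 42.8% to 64.2% for the interaction. The last was 53.8% with quantile normalisation and 31.5% on the RPKM scale, where the shares between control and between Anillin fractions were 64.4% (52.1%) and 72.9% (60.6%). Signs turned for values near 0 that passed no test. With plain totals MYH9 was 0.040 between the 4N groups, and with quantile normalisation MYH10 was -0.00415 between Anillin fractions. With 1 library left out, MYH10 ranged from -0.041 to 0.043 between Anillin fractions (-0.041 without replicate 1 of Anillin 2N and -0.011 without replicate 3 of Anillin 4N). Between the 2N groups ROCK1 then ranged from -0.084 to 0.000651 (the latter without replicate 1 of Anillin 2N) and MYL12B from -0.059 to 0.010 (without replicate 1 of control 2N). ECT2 for Anillin 4N against control 2N ranged from -0.17 (called, without replicate 2 of control 2N) to 0.016 (without replicate 1). The cause was not tested. Of the log2 changes recomputed, 1449 kept their direction and side of the threshold, 41 lost a call, 8 gained one and 7 turned. No paired analysis was made, because the labels' sample numbers are shared by no pair of groups. In every group MYH9 was highest in replicate 3, then 1, then 2, and MYH10 was highest in replicate 3. ROCK1 kept no such order. Whether replicates of the same number belong together was not tested, and no fit that matches them was run. Low read counts limit ANLN after siRNA most, at 57 to 259 reads a library.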
